A study of Mus musculus with 16 samples.

Results

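Promoters that were open in every chromatin library of this study of mouse CD8+ T cells are described here. ATAC-seq maps open chromatin through insertions of the Tn5 transposase, and a peak marks a stretch with more insertions than its surroundings. Merging the 528384 peaks of 12 libraries at any overlap of 1 bp or more gave 94635 regions. A region was kept when each of the 12 libraries had a peak in it and it came within 1 kb of the start of a gene listed in the RNA table. The result was 9796 promoter regions, 10.4% of all merged regions, near the starts of 11053 of the 13275 listed genes (83.3%). Since the peaks themselves chose these regions, every value taken from peaks below is a description with no test. RNA entered the choice only through the genes listed and their coordinates, so the RNA comparison was tested; how the authors selected the listed genes is not given.

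All libraries came from CD8+ T cells of Pmel-LC3-GFP-RFP mice, whose T cell receptor recognises a melanocyte antigen and whose LC3 reporter marks autophagosomes. Purified cells were activated with antibodies to CD3 and CD28 (2 µg/ml each) in 100 IU/ml IL2 over 3 days, given carbon monoxide (CO) for 24 h, and sorted by flow cytometry on the GFP of the reporter, which gave the LC3-GFP positive and the negative arm. Both arms therefore carry the reporter, the activation and the CO, and cells without CO were not analysed here. These sorted cells gave 4 RNA libraries and 4 separate ATAC libraries, 2 per arm in each case, which are termed in vitro. The tumour libraries followed transfer of either arm into C57BL/6 mice with B16-F10 melanoma grown for 12 days. From each recipient's tumour, CD8+ cells bearing Vβ13 were isolated 15 days later, and each arm had 4 mice. The labels mention no depletion of the hosts' own T cells, and the Vβ13 and CD8 gate would keep host T cells that carry this receptor chain. Nothing in the labels says whether the RNA and in vitro replicates came from separate animals or cultures, so the p-values reflect no more than how these libraries vary, and that variation may be technical.

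Peak numbers ran from 27406 in tumour positive replicate 1 to 63761 in in vitro positive replicate 1, and read depth was not given by the peak lists. RNA totals ran from 14567540 to 17557628 estimated counts. Tumour negative replicate 2 stood apart from the other tumour libraries. When peak heights were ranked among the 9796 promoters within each library, its ranks correlated with those of the other 7 tumour libraries at Spearman's rho between 0.73 and 0.78, while the highest rho that each of those 7 reached with another tumour library was 0.87 to 0.92 (across promoters, which share each library's depth). Results that rest on this library are given with and without it.

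A promoter is the stretch around a gene start where transcription factors and RNA polymerase II assemble. In mammals most promoters of widely used genes lie in CpG islands, where the CG dinucleotide has been kept because it is not methylated, and they bind general activators such as SP1 (GC box), NF-Y (CCAAT box), NRF1 and ETS factors. Promoters of tissue-restricted genes are more often poor in CG, and some hold a TATA box, which positions the start. Their activity leans on factors of the cell type, in T cells for example RUNX proteins and the AP-1 factors that follow receptor signalling.

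Both kinds occur among the shared promoters, as 9 sequences show. They are the 250 bases before the RefSeq gene start on GRCm38.p6 (the assembly that mm10 names), written 5′ to 3′ on the strand of the gene. Capitals mark matches on either strand to any of 12 motifs, spelled out further on, and capitals of neighbouring motifs can run together where matches overlap. Mki67 (chr7:135716380-135716629, minus strand), a nuclear protein of dividing cells, Psma2 (chr13:14612992-14613241, plus strand), a proteasome subunit, and Mrps22 (chr9:98601680-98601929, minus strand), a protein of the mitochondrial ribosome, stand for the CG-rich growth and housekeeping promoters. Hspa5 (chr2:34771840-34772089, plus strand), the main chaperone of the endoplasmic reticulum (ER), and Ddit3 (chr10:127290543-127290792, plus strand), the stress factor CHOP, stand for the ER stress promoters, since the 2 genes changed in opposite directions in RNA. Gzmb (chr14:56262335-56262584, minus strand), granzyme B, and Prf1 (chr10:61297586-61297835, plus strand), perforin, are the killing genes. Cytip (chr2:58160123-58160372, minus strand), which regulates lymphocyte adhesion, had one of the lowest peaks by fold enrichment, and Txk (chr5:72752778-72753027, minus strand), a T cell kinase, one of the largest falls in RNA.
Mki67: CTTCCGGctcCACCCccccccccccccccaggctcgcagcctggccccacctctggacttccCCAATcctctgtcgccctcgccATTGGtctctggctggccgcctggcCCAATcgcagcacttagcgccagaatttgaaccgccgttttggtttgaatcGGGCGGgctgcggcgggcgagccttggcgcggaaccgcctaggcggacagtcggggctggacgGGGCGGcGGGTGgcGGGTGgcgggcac
Psma2: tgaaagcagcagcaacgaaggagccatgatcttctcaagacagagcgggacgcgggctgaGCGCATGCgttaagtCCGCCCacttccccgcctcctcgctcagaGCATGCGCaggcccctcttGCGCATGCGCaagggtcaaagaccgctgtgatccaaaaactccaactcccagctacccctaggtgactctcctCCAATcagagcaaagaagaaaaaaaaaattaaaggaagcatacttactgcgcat
Mrps22: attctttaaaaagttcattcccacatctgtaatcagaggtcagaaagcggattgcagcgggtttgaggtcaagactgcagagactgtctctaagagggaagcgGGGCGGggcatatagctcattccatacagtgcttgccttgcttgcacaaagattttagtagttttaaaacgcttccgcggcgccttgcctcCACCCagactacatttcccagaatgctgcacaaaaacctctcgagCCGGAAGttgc
Hspa5: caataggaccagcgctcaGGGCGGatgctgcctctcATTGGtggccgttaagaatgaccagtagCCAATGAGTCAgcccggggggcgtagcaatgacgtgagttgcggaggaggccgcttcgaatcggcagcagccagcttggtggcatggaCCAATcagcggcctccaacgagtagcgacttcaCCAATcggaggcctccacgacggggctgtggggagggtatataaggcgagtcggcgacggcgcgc
Ddit3: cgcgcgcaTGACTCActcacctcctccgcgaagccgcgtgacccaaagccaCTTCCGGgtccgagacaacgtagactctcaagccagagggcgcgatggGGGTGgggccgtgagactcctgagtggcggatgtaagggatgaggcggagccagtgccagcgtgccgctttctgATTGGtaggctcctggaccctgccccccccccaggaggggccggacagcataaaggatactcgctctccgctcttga
Gzmb: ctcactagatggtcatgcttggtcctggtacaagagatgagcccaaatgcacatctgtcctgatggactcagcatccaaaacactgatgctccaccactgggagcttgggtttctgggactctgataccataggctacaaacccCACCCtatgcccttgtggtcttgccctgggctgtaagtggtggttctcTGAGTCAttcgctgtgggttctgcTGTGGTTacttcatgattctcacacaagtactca
Prf1: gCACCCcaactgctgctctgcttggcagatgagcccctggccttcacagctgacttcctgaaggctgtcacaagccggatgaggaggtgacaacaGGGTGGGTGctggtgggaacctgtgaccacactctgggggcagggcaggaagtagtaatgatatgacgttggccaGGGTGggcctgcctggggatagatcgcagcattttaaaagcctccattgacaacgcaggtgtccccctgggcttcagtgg
Cytip: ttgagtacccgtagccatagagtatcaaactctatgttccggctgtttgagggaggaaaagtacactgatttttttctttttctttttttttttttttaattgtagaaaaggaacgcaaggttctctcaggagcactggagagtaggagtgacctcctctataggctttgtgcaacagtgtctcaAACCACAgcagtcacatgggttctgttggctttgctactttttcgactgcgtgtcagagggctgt
Txk: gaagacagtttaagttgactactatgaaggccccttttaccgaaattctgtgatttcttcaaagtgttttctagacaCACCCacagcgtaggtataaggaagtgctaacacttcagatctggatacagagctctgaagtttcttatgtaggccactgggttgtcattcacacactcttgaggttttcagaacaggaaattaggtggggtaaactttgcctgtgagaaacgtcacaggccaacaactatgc

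These windows differ in how many CG dinucleotides they hold. Mki67 has 24, Hspa5 22 and Ddit3 20 in their 250 bases, Psma2 has 14 and Mrps22 10, whereas Cytip has 5, Prf1 4, Txk 3 and Gzmb 1. Scaled to base composition (observed over expected CpG), the CG-rich windows run from 0.67 in Mrps22 to 0.93 in Hspa5, and the other four from 0.06 in Gzmb to 0.44 in Cytip. Matches to the GC box, the CCAAT box, ETS and NRF1 stand only in the first group of these 9 windows, and RUNX matches only in Gzmb and Cytip. Psma2 holds matches to the NRF1 core that begin 190, 146, 127 and 125 bases before the start, the last 2 overlapping. Mki67 holds CCAAT boxes at 188, 166 and 141 bases, and Hspa5 at 214, 186, 98 and 65 bases, the one at 186 sharing a base with an AP-1 match at 182. Gzmb has an AP-1 match 58 bases and a RUNX match 34 bases before its start. All 9 promoters had a peak in all 12 libraries.

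Being open in all libraries went together with being near a gene start. Of the 26551 regions found in a single library, 0.659% came within 1 kb of a start, and the share was 1.34% at 4 libraries, 3.43% at 8 and 6.85% at 11. Of the 20064 regions found in all 12 libraries it was 48.8%. Read the other way, 88.2% of the 11112 regions near a start were found in all 12 libraries, against 12.3% of the regions farther away. A further 270 regions near a start were found in 11 libraries, of which 165 lacked a peak only in tumour positive replicate 1, the library with the fewest peaks, and 40 only in tumour negative replicate 2.

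**Figure D1:**
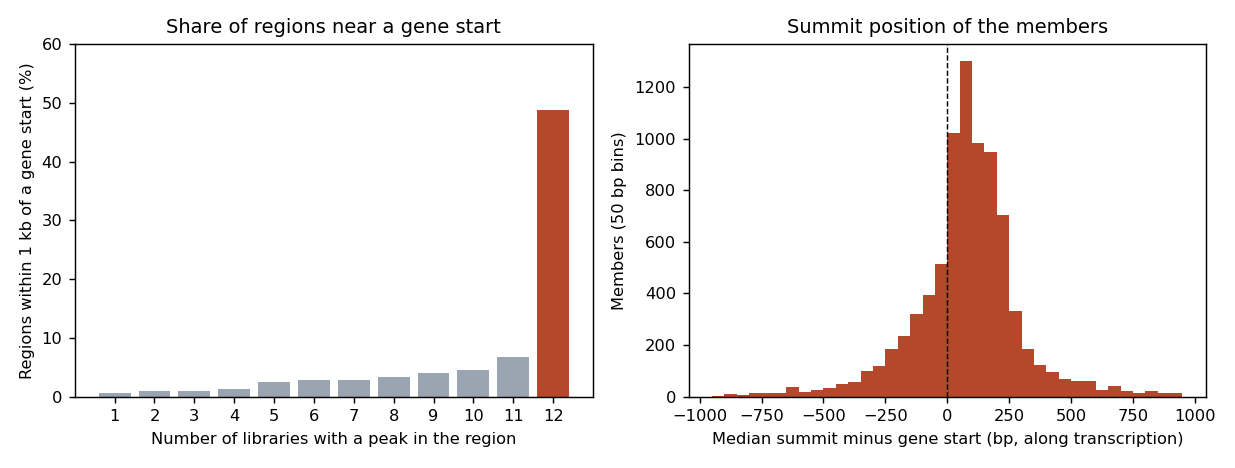
Left, bars give the percent of merged regions that come within 1 kb of a gene start, by the number of ATAC libraries with a peak in the region; the bar at 12 (48.8%) stands far above the bar at 11 (6.85%). Right, the histogram gives the summit position (median over the 12 libraries) for promoters with a single gene start (8544 in all). It is in bp along the direction of transcription, with 0 at the start. Summits more than 950 bp upstream (98 promoters) or at least 950 bp downstream (247) are not drawn. Most summits fall shortly downstream.

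The peaks sat on the start itself. A gene start lay inside 9640 of the 9796 regions (98.4%), and the regions had a median width of 1884 bp (752 to 6169 bp), against 1637 bp for the 10268 regions found in all libraries farther from a start. In the 8544 promoters with 1 gene start, the median summit was 86.5 bp downstream of the start, and 77.4% of summits lay within 250 bp of it. Summits were downstream in 73.5% and upstream in 26.4%. By library the median summit ran from 58 bp in tumour positive replicate 1 to 138 bp in tumour negative replicate 2. At the limit of the rule, the promoters of Gpr146, Jph4 and Aif1 lay 1000, 997 and 996 bp from their starts and were kept, and the regions near Smn1, Hic1 and Adcy6, at 1007, 1008 and 1010 bp, were not.

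Shared promoters made up between 15.9% (in vitro positive replicate 1) and 36.7% (tumour positive replicate 1) of a library's peaks, and 26.4% to 46.6% of the bases under peaks. They made up more of the sharpest peaks. Among the 1000 peaks of highest fold enrichment in each library, the share in these promoters was 39.1% to 76.5%. Their median fold enrichment over the local background, as the authors' caller gave it, was 5.29 to 8.25 by library, and 4.31 to 6.53 for the distant regions found in all 12 libraries.

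The sequence of the promoters could be compared through RefSeq, which has a start within 1 kb of 8051 of the 9796 regions (82.2%). In the 300 bases from 250 before to 50 after the start, shared promoters had a median GC content of 61.7% and a median observed over expected CpG of 0.792. The 21459 RefSeq promoters farther than 1 kb from any of them had 48.7% and 0.238, and the 15077 with no peak of any library within 1 kb had 47.0% and 0.2. A ratio of at least 0.6, a usual mark of a CpG island, was reached by 78.8% of shared promoters, 13.4% of the distant ones, 6.65% of those without a peak and 35.8% of all 32851 promoters. The RefSeq promoters compared include those of genes that the RNA table does not list, whereas every shared promoter lies near a listed gene. The printed windows of Gzmb, Prf1, Cytip and Txk lie below that ratio.

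**Figure D2:**
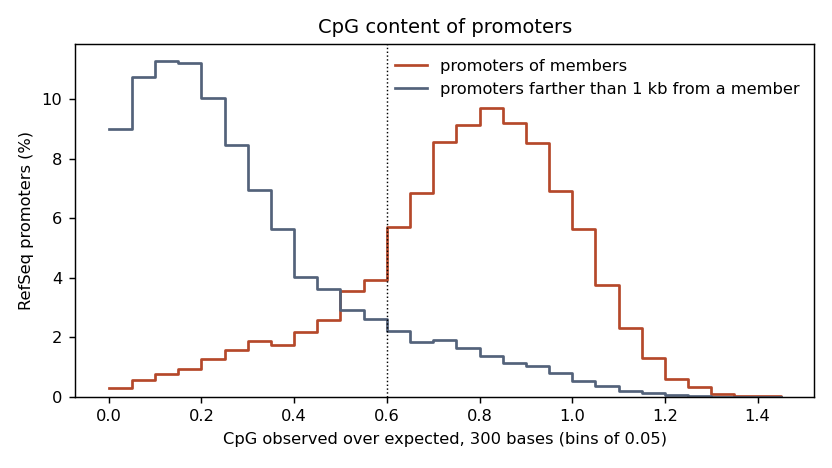
Lines give the percent of promoters in bins of 0.05 of observed over expected CpG (300 bases around the RefSeq start) for shared promoters and for RefSeq promoters more than 1 kb from one; the dotted line is at 0.6. The 2 curves peak on opposite sides of it, with medians of 0.792 and 0.238.

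Of the 12 motifs searched on both strands, each of those whose letters contain a CG were more frequent in shared promoters. The GC box (GGGCGG) was in 69.1% of shared promoters, 18.8% of those farther away and 35.7% of all RefSeq promoters. The ETS motif (CCGGAAG) was in 20.1%, 2.92% and 8.86%, the NRF1 core (GCATGCGC) in 6.01%, 1.01% and 2.71%, and the ZBTB33 core (TCTCGCGA) in 2.52%, 0.163% and 0.995%. The cAMP response element (CRE, TGACGTCA) was in 3.6%, 0.895% and 1.79% and the E-box (CACGTG) in 10.9%, 5.18% and 7.15%. CG-rich sequence holds more such matches at any place, and no correction for base composition was made. Without a CG in its letters, the YY1 motif (AAGATGGC) was also more frequent, at 4.87%, 1.65% and 2.75%, while the CCAAT box (CCAAT) was near the background at 39.2%, 37.1% and 37.4%, and SP/KLF (CACCC) was at 62.5%, 54.5% and 57.5%. The TATA box (TATAAA) at 6.35%, 17.6% and 13.6%, AP-1 (TGACTCA) at 3.13%, 6.37% and 5.2% and RUNX (TGTGGTT) at 3.59%, 6.2% and 5.27% were less frequent in the shared promoters. A match describes letters and not binding.

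Promoters were also ranked by height (the pileup at the summit) and by fold enrichment (the same over the local background). The 10% with the tallest peaks, 86.4% of them matched to RefSeq, had a CCAAT box in 47.3% and a median CpG ratio of 0.844. The 10% with the highest fold enrichment (82.8% matched) had a CCAAT box in 45.6% and an ETS motif in 29.6%, and the 10% with the lowest (81.4% matched) had them in 33.8% and 10.7%. The tallest had an ETS motif in 18.1%. Across the 9796 promoters fold enrichment fell with peak length (Spearman's rho -0.51) and height rose with it (0.51). Fold and height had a rho of -0.17, and the part of peak calling in these relations was not tested. These are correlations across promoters of the same libraries and carry no test.

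The promoters at the extremes were different kinds of genes. Srp54b and Srp54c, copies of a subunit of the signal recognition particle, and the region of Ermard, Gm3417 and Gm3448 had the highest fold enrichment, with values from 13.21 to 23.79 over the libraries. Near-identical copies share reads, so these are uncertain. The others of the 12 highest were 2310009B15Rik, 9130401M01Rik, E130311K13Rik, Cyp2r1 (vitamin D 25-hydroxylase), Lipo3, Zfp157 (a zinc finger protein), Hist1h4m (a histone H4 gene), Mrpl44 (mitochondrial ribosome) and Mtx3, between 7.97 and 17.41. The 5 lowest were Junb, an AP-1 subunit, Akna, Cytip, Dusp2, a phosphatase induced by T cell activation, and Setd1b, a histone H3 lysine methyltransferase, with folds from 1.64 to 2.53. Low fold did not mean a low peak: Junb ranked between percentile 85.2 and 99.2 of height in every library and Dusp2 between 76.6 and 98.3. Junb lay in a region of 6060 bp, which is also among the 5 widest with Brd2 and H2-DMa (6169 bp), Bbc3 (5770 bp), Midn (5606 bp) and Zfpm1 (5496 bp).

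Some promoters were tall in every library. The shared starts of Jmjd6 and Mettl23 and of Mfsd11 and Srsf2, a splicing factor, are neighbours on chromosome 11, and their height percentile was at least 90.8 and 95.5 in every library. Rfx3, a transcription factor of cilia genes, Tacc3 with Tmem129, and Cul4a, a ubiquitin ligase scaffold, with Pcid2 completed the 5 with the highest median. In all, 64 promoters stayed in the top 10% of height in all 12 libraries and 255 in the bottom 10%, and 2394 (24.4%) stayed in the top and 2518 (25.7%) in the bottom 50%. For the median promoter, the percentile ranged over 36 points between its highest and lowest library.

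Most regions served 1 gene start (8544, 87.2%). Another 924 (9.43%) lay between 2 divergent genes, with starts a median of 173 bp apart, and 244 (2.49%) between 2 genes whose first parts overlap. Divergent promoters had taller peaks, with a median height percentile of 67.3 against 47.5 for single starts, and were a little wider (2024 and 1861 bp). The regions with most starts hold Cbx5, Gm10052, Gm5643 and Hnrnpa1, the histone genes Hist2h2aa1, Hist2h2aa2, Hist2h3c1 and Hist2h3c2, and 4930515G01Rik, Ankrd13a and Git2. Of protein-coding genes 84.1% had a shared promoter, of lncRNA genes 74.7% and of transcribed pseudogenes 44.0%. By chromosome the share ran from 77.8% on X to 86.1% on chromosomes 8 and 12, and none of the 5 genes on Y had one.

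Genes with a shared promoter had more RNA. Their median was 34.5 CPM (counts scaled to library size, over the 4 libraries) against 1.09 CPM for the 2222 other listed genes, with median gene spans of 20334 and 19382.5 bp. The step lay at 12 libraries: the median was 1.16 CPM for genes with no peak near the start, 0.806 CPM with peaks in 1 to 4 libraries, 1.04 CPM in 5 to 8, 2.06 CPM in 9 to 11 and 34.9 CPM in all 12. Of the top 25% of tested genes by RNA, 95.9% had a shared promoter, and of the bottom 25% 66.7% (51.7% when no filter on low counts was used). CPM is not scaled to transcript length, so CPM ranks of genes are not ranks of transcript numbers.

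**Figure D3:**
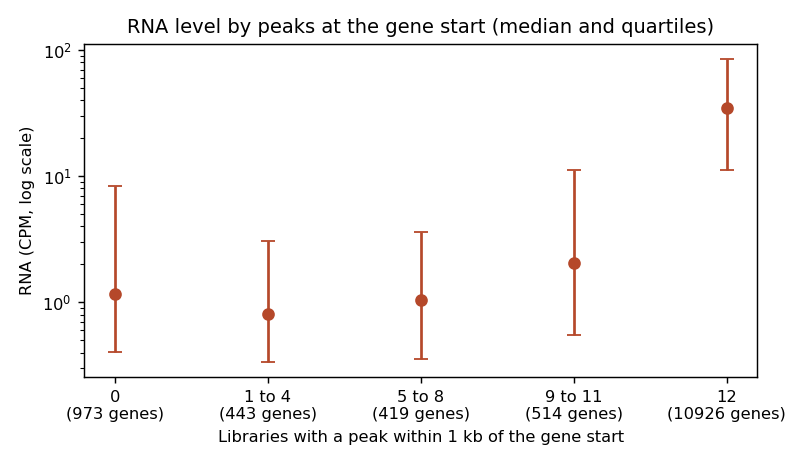
Points give the median RNA level (CPM, log axis) and bars the quartiles of genes grouped by how many of the 12 ATAC libraries have a peak within 1 kb of the gene start, with the number of genes under each group. Only the group with peaks in all 12 lies well above the rest, at 34.9 CPM against 0.806 to 2.06 CPM.

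The exceptions ran both ways. The 5 genes with the highest CPM and no peak near their listed start were Eno1b (2329 CPM), Gm12070 (1805 CPM), Ywhaz, a 14-3-3 protein (799 CPM), Rpl14-ps1 (727 CPM) and Tpm3, a tropomyosin (684 CPM). Rpl14-ps1 is a pseudogene, and reads of near-identical copies can be counted to it. For Ywhaz and Tpm3 a region open in all libraries lay within the gene body, 2011 and 6419 bp from the listed start, as for 689 (31.0%) of the 2222 genes without a shared promoter. In the other direction, the promoters of Oas2, an antiviral enzyme, Oaf, Hist1h1a, L3hypdh and Gm12522 were open in all 12 libraries while their RNA was between 0.486 and 0.522 CPM. In Oas2 the 4 libraries held 0.836, 0.188, 0.841 and 0.14 CPM. In these libraries 3 counts correspond to 0.167 to 0.21 CPM.

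The gene lists differed in how many of their genes had a shared promoter. All 78 mitochondrial ribosomal protein genes, all 30 of cell cycle and replication, all 32 of lysosome and TFEB and all 22 of the unfolded protein response had one, as did 42 of 43 autophagy genes, 42 of 43 RNA polymerase II and mediator subunits and 76 of 78 nuclear subunits of oxidative phosphorylation. Among the T cell receptor and CD8 genes it was 25 of 27, the exceptions being Cd6 and Thy1, which had a peak near the start in 11 libraries. The share was lower for effector function (16 of 21) and for inhibitory receptors and exhaustion (13 of 19). Pdcd1, Havcr2 and Ctla4, which encode the checkpoint receptors PD-1, TIM-3 and CTLA-4, had peaks near the start in 11 libraries, Cd244 in 8 and Cd160 in none. Ccl5, a chemokine, was at 10 libraries, Gzmc at 7 and Gzmk at 0.

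Each list of markers of other cells had a shared promoter less often than all listed genes (83.3%), and the share differed between these lists. None of 10 B cell genes in the table had one (peaks near the start were found in 9 libraries for Cd79b, 5 for Cd22, 2 for Cd79a and none for Jchain), nor had Cd4 (1 library) or Foxp3 (none). Of 11 macrophage, monocyte and dendritic cell markers 3 did (Cd14, Cd74 and H2-Ab1), of 8 NK cell markers 3, of 6 CD4 and regulatory T cell markers 3 and of 7 melanoma and stroma markers 4. As for the labelled cell type, Cd3d, Cd3e, Cd3g, Cd8a, Cd8b1, Cd2, Cd5, Lck and Zap70 all had a shared promoter, and the RNA held 564 CPM of Cd8a and 2.37 CPM of Cd4.

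RNA was then compared between LC3-GFP positive and negative cells in vitro, which asks whether genes behind these promoters differed with autophagy reporter level. Of all 12022 genes tested, 25.0% passed the threshold (edgeR's quasi-likelihood test, Benjamini-Hochberg adjusted p below 0.05), 11.3% higher and 13.6% lower in positive cells. Of the 11053 genes with a shared promoter 10569 passed the filter on low counts, and 2642 of those (25.0%) were called, 1243 higher and 1399 lower. Of the 1453 tested genes without one, 358 (24.6%) were called. The shares called were close, while the sizes differed: the median size among called genes was 0.299 on the log2 scale with a shared promoter and 0.741 without, and 1.52% against 9.36% of tested genes were called and more than 2-fold apart. The RNA level differs between these classes as well, and its part in this was not tested. Library size alone in place of TMM scaling, which moves the median of all genes by 0.065, gave 2087 higher and 999 lower (67.6% of calls higher, 47.0% with TMM). Leaving out positive library 1 gave 618 higher and 884 lower, leaving out positive library 2 gave 656 and 894, and DESeq2 called 641 and 846.

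The largest rises among these genes, at a mean of at least 5 CPM, were led by Cd74. Cd74, which chaperones MHC class II molecules, held 16.3 and 14.6 CPM in positive libraries and 0.841 and 1.33 CPM in negative ones (log2 change 3.84 ± 0.23 (SE), edgeR adjusted p = 9.04e-10). Tox, a transcription factor of exhausted T cells, held 12.7 and 11.5 against 5.57 and 4.48 CPM (log2 change 1.26 ± 0.17, edgeR adjusted p = 2.96e-05). In both genes the groups did not overlap, as the rule for naming the largest rises required. Casp1, the inflammasome protease, and Myadm rose by log2 changes of 1.05 and 1.06, Klhl23 by 0.94, Cep290, a cilium protein, by 0.92, Cd24a by 0.91, Irak1bp1 by 0.89 and Eng, a TGF-beta co-receptor, by 0.88. Tgoln2, of the trans-Golgi network, came out at 1.31 with libraries at 11 and 19.9 against 10 and 2.1 CPM, and DESeq2 did not call it. Cd74 is also a marker of myeloid and B cells. Of the 10 listed B cell markers, 6 were tested and 5 of those were called higher in positive cells. Cd79a stood at 2.06 and 2.01 against 0.129 and 0.14 CPM, Cd22 at 1.73 and 1.82 against 0.194 and 0 CPM, and Cd79b, which was not called, at 6.3 and 5.96 against 3.82 and 5.24 CPM. Of 9 tested myeloid markers 3 were called higher, namely Cd74, H2-Aa (2.56 and 3.58 against 0.259 and 0.14 CPM) and Mpeg1 (1.67 and 1.07 against 0 and 0.0699 CPM), and 3 lower, namely Cd68, H2-Ab1 and Xcr1. The summed CPM was 16.5 and 15.4 against 6.47 and 7.13 for the B cell markers and 73.6 and 80.3 against 83.8 and 88.8 for the 11 myeloid ones. Most of the myeloid sum is H2-Ab1, with a mean of 59.3 CPM over the 4 libraries and a log2 change of -0.484. That sum therefore says little about the other myeloid markers. The part of other cells in these changes was not tested, and in bulk samples a change in the share of a cell type and a change in RNA per cell cannot be told apart.

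Among the falls, Itga7, an integrin chain, held 15 and 14.1 CPM in positive and 53.1 and 55.3 CPM in negative libraries (log2 change -1.90 ± 0.09, edgeR adjusted p = 5.2e-11). Txk, the kinase whose CG-poor promoter is printed above, held 20.1 and 15.9 against 53.1 and 57.8 CPM (log2 change -1.62 ± 0.10, edgeR adjusted p = 1.65e-09). Both genes were lower in each positive library than in any negative one, as the rule for naming the largest falls required. Tnfrsf23, a decoy receptor, fell by 2.19 on the log2 scale, Ifi208, of the interferon-induced p200 family, by 1.95, F2rl1, a protease-activated receptor, by 1.65, Camk2n1 by 1.59, Hs3st3b1, a heparan sulfate sulfotransferase, by 1.49, Etv4, an ETS factor, by 1.48 and Grin1, a glutamate receptor subunit, by 1.47. Hist2h2aa1 was at -2.19 with libraries at 1.11, 2.64, 3.56 and 13.5 CPM; it shares reads with copies and DESeq2 did not call it.

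Gene lists showed where the calls gathered. Against 11.3% higher and 13.6% lower over all genes, the cell cycle and replication list had 16 of 30 genes higher and 1 lower. Ccne2, cyclin E2, rose by 0.53 on the log2 scale, Tyms, thymidylate synthase, by 0.41, Cdc6, which licenses replication origins, by 0.40 and Top2a, topoisomerase II, by 0.15. Mki67, whose promoter is printed above, held 1508 and 1523 against 1622 and 1346 CPM and was not called (log2 change 0.03). The unfolded protein response list had 10 of 22 higher and 1 lower, with Hspa5 at 715 and 721 against 582 and 554 CPM (log2 change 0.34 ± 0.04, edgeR adjusted p = 2.29e-05), Sdf2l1 at 0.43, Hyou1 at 0.29 and Calr, calreticulin, at 0.29. Proteasome subunits had 13 of 36 higher and none lower (Psmc5 0.37, Psma7 0.29, Psma2 0.26), and mitochondrial ribosomal proteins 14 of 78 higher and none lower (Mrps6 0.68, Mrpl41 0.35, Mrps22 0.34). RNA polymerase II and mediator subunits had 8 of 42 higher and 1 lower, with the large subunit Polr2a at 543 and 531 against 446 and 437 CPM. These counts depended on single libraries and on the tool. Leaving out positive library 1 or 2 gave 9 and 9 higher for the cell cycle, 5 and 6 for the proteasome, 7 and 8 for mitochondrial ribosomal proteins and 3 and 3 for RNA polymerase II, and DESeq2 gave 14, 8, 4 and 3. Library size alone gave 21, 22, 26 and 14.

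Other lists moved down. Among HIF1 targets and glycolysis 21 of 33 genes were lower and none higher. Aldoc, aldolase C, held 70.5 and 75.8 against 147 and 149 CPM (log2 change -1.02 ± 0.06, edgeR adjusted p = 4.2e-10), Ndrg1 fell by 0.85 and Ero1l, the ER oxidase, by 0.62, while the enzymes Ldha (log2 change 0.09) and Pkm (-0.10) were not called. The PERK and integrated stress response list had 17 of 31 lower and 2 higher. Ddit3 held 9.86 and 11.5 against 22.3 and 21.1 CPM (log2 change -1.02 ± 0.12, edgeR adjusted p = 8.79e-06), Trib3, a pseudokinase induced by CHOP, fell by 0.97, Atf5 by 0.95 and Slc7a5, an amino acid transporter, by 0.41. The list of ER chaperones and the list of the PERK arm thus had most of their calls on opposite sides; the difference between the lists was not tested. Of 42 autophagy genes 9 were lower and none higher, led by Sqstm1 (p62, an autophagy receptor; 121 and 116 against 186 and 178 CPM, log2 change -0.62), Wipi1 (-0.66) and Pink1 (-0.55). With library size alone, 3 autophagy genes were higher and 6 lower, and without positive library 1 none were higher and 5 lower.

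The lists of T cell function differed in their counts. Of 14 tested effector genes 7 were lower and none higher: Prf1 held 182 and 185 against 396 and 386 CPM (log2 change -1.09 ± 0.04, edgeR adjusted p = 1.88e-11), Eomes, a transcription factor of effector and memory CD8 T cells, fell by 1.45, Serpinb9 by 1.33 and Serpinb6b, both protease inhibitors, by 1.24. Gzmb, at 5666 and 5837 against 6064 and 6197 CPM, was not called (log2 change -0.09, edgeR adjusted p = 0.171). Of the 25 T cell receptor and CD8 genes 10 were lower and 1, Tcf7 (log2 change 0.49), was higher. Cd7 was at 0.557 and 0.314 against 2.52 and 2.87 CPM, and Cd8a, Cd8b1, Cd3d and Cd3e fell by 0.18 to 0.20 on the log2 scale. With library size alone this list had 5 lower and 3 higher, and without positive library 1 or 2 it had 4 and 5 lower and 1 higher. The summed CPM of the 27 listed T cell genes was 8800 and 8790 in positive and 9450 and 9400 in negative cells, and that of the 8 NK markers 160 and 165 against 299 and 321. Memory and stemness genes had 5 of 17 higher (Cxcr3 0.70, Id3 0.64) and 2 lower, and inhibitory receptors and exhaustion 4 of 13 higher and 3 lower (Entpd1, the ectonucleotidase CD39, fell by 1.15).

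Cytosolic ribosomal proteins had 36 of 92 lower and 5 higher, and many have pseudogene copies, so their counts are uncertain. Without positive library 1 the count lower was 13, and with library size alone 20. Rps16 was at -0.45 and Rps27l at 0.41. Canonical histone genes had 21 of 44 tested lower and none higher, with 56 genes on 34 distinct regions; DESeq2 called 9, and without positive library 1 or 2 there were 13 and 11. Their counts are low and shared between copies, as in Hist1h3d with 0.167 and 0.126 against 0.906 and 1.47 CPM. NRF2 and heme or carbon monoxide genes had 2 of 22 higher and 4 lower, among them Hmox1, heme oxygenase 1, which releases CO (19.8 and 18 against 32.9 and 27 CPM, log2 change -0.66), and Bach1, its repressor (-0.52). Tfrc, the transferrin receptor, rose by 0.28. Lysosome genes (4 higher and 5 lower of 32), chromatin enzymes (5 and 8 of 32), initiation factors (9 and 5 of 48), oxidative phosphorylation (8 and 5 of 75 tested) and housekeeping references (4 and 4 of 19) had calls on both sides. Of these small counts, those higher fell to 1 for lysosome (with 1 lower), 2 for chromatin, 5 for initiation factors and 3 for oxidative phosphorylation when 1 positive library was left out. With library size alone the medians of the lysosome, memory and housekeeping lists turned from below to above 0 (-0.027 to 0.036, -0.020 to 0.042 and -0.013 to 0.049).

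**Figure D4:**
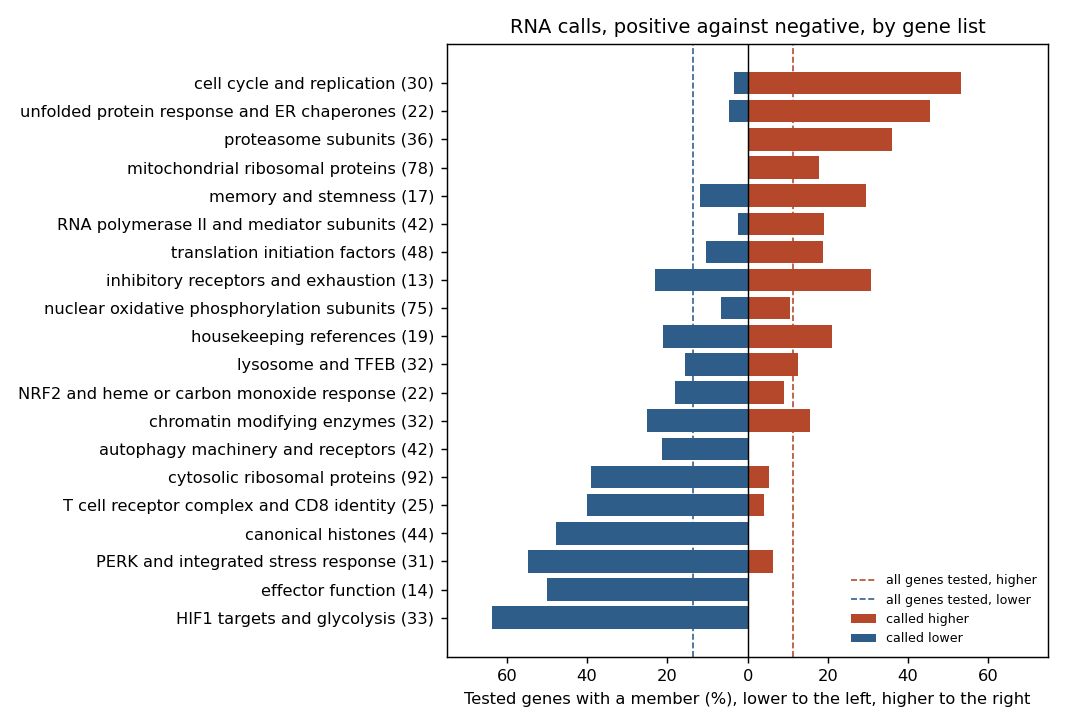
Bars give, for each list, the percent of tested genes with a shared promoter that were called higher (right) or lower (left) in LC3-GFP positive cells, with the number of tested genes in brackets; dashed lines give the same shares over all 12022 genes (11.3% higher, 13.6% lower). Cell cycle genes reach 53.3% higher, and HIF1 and glycolysis genes 63.6% lower.

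Pairs of genes that share 1 divergent promoter were looked at next. Of 924 pairs 818 had both genes tested, and 319 of these 1636 genes (19.5%) were called, against 25.0% of all genes. Both genes were called in 38 pairs (4.65%) and neither in 537 (65.6%). In the other 243 pairs 1 gene was called. Of the 38, in 26 both were higher, in 6 both were lower and in 6 they went opposite ways. Cenpp, a centromere protein, and Nol8, a nucleolar protein, rose together by 0.48 and 0.45 on the log2 scale, and Pop1 and Rida by 0.40 and 0.43. Khnyn and Cbln3 fell together by 0.52 and 0.98. Actg1, gamma actin, fell by 0.38 and its partner 0610009L18Rik was at a log2 change of -1.71. Psme2, a proteasome activator subunit, rose by 0.36 while Rnf31, a ubiquitin ligase subunit, fell by 0.29, and Ddb1 rose by 0.18 while Tkfc fell by 0.32. Reads of genes whose first parts overlap cannot be assigned by strand here, since strandedness was not given.

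Peak height could be compared between libraries as a rank, since all 12 hold the same 9796 promoters. Each promoter has a height percentile among them in each library, from 0 (lowest) to 100 (tallest). A promoter was counted as shifted when the groups did not overlap and their means differed by at least 25 points. Height was chosen after fold enrichment had been tried, and length was tried too, so 3 measures and 3 comparisons give 9 pairs of counts. By height, 65 promoters ranked higher in the tumour than in vitro (0.664%) and 188 lower (1.92%). Between in vitro positive and negative cells 250 ranked higher (2.55%) and 279 lower (2.85%), and between tumour positive and negative cells 49 higher (0.5%) and 53 lower (0.541%). Without tumour negative replicate 2 the counts between the tumour arms were 33 and 53, of which 23 and 31 were among those with it. Leaving out 1 in vitro library gave 409 to 577 higher and 407 to 561 lower in the in vitro comparison, since fewer libraries overlap less often. With 2 libraries against 2, groups fail to overlap far more easily than with 4 against 4. By fold the counts were 121 and 84, 79 and 109, and 68 and 51, and by length 60 and 96, 261 and 179, and 39 and 51, in the same order.

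Between the tumour and the in vitro libraries, few promoters met the rule for a shift, which asks that none of 8 libraries overlap the other 4. The median absolute shift was 7.0 points, against 7.1 between the in vitro arms and 5.0 between the tumour arms. Nr4a1, an immediate early factor of T cell receptor signalling, had percentiles of 26.4, 22.6, 47.0 and 44.3 in vitro and 62.1 to 90.1 over the 8 tumour libraries. Kdm6a, a histone H3K27 demethylase, was at 14.3 to 32.4 in vitro and 73.0 to 91.7 in the tumour. Ifit3, an interferon-induced gene (3.7 to 22.6 in vitro, 23.0 to 82.6 in the tumour), Ahnak, Prkch, a protein kinase C, and Uvrag, an autophagy regulator, were also among the 15 largest rises. In the other direction Pou2af1, a transcriptional coactivator of lymphocytes, was at 98 to 99.1 in vitro and 0.8 to 37.2 in the tumour. Cd81, a tetraspanin that shares its region with R74862, was at 48.5 to 72.5 and then 0.2 to 12.7. Ak4, an adenylate kinase, was at 60 to 90.1 and then 5.7 to 22.7. The settings differ in time, host and sort as well as in place, and these cannot be told apart. Without tumour negative replicate 2 the counts were 145 higher and 315 lower.

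In vitro, 21 of the 25 T cell receptor and CD8 genes had promoters that ranked lower in height in LC3-GFP positive than in negative cells. Cd247, the zeta chain of the T cell receptor, had height percentiles of 6.8 and 9.1 in positive cells against 77.9 and 67.0 in negative cells. Cd3e was at 4.8 and 14.4 against 41.4 and 75.5, and Gzmb at 3.6 and 8.0 against 88.1 and 57.7. These 3 genes were among the 15 largest falls, for which groups without overlap were required. Over all 9796 promoters, the in vitro groups did not overlap in 3848 (39.3%). Over the 25 T cell receptor and CD8 genes (24 regions, since Cd3d and Cd3g share one), the median percentile was 7.2 and 10.4 in positive and 43.3 and 42.2 in negative libraries, and the median shift was -21.9 points, against 0.0 over all 9796 promoters. Cd8a was at 0.1 and 0.8 against 1.4 and 1.0, so its peak ranked near the bottom in all 4. Runx3 and Ikzf1, transcription factors of many blood cells, ranked higher in positive cells (Runx3 at 69.7 and 76.5 against 56.9 and 51.0). Tiam1, which had the largest fall, Osbpl3 and Axin2, a Wnt target, were also among the 15 largest falls. The rest of the 15 were Tdrp, Ms4a6b, B430319G15Rik with Plod2, Cspg5, Als2cl with Tmie, Cln8, Spef2, B4galnt4 and Chst2.

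The 15 largest rises in in vitro positive cells were named after their values were seen. Lyn, a kinase of B and myeloid cells, was at 67.5 and 80.4 in positive and 7.2 and 11.7 in negative libraries, and Cd74 at 74.0 and 62.3 against 11.9 and 14.6. Themis2, expressed in B cells and macrophages, was at 56.3 and 50.8 against 3.6 and 13.6, and Tnfrsf13c, the BAFF receptor of B cells, at 45.2 and 76.5 against 27.0 and 9.0. The others were Grn, progranulin, Bst2, an interferon-induced restriction factor, Dusp3, Snx20, Fam204a, Bri3bp, Khnyn with Cbln3, Dclk2, Zfp710, Ltk and 9330175E14Rik. No list was tested for enrichment among them. The median over the 3 myeloid marker genes with a shared promoter was 51.7 and 57.5 in positive and 12.7 and 14.6 in negative cells. It fell on H2-Ab1 in both positive libraries, and on Cd14 and Cd74 in the negative ones. H2-Ab1 itself was at 51.7 and 57.5 against 43.3 and 38.2. Taken gene by gene, the median shift of these 3 genes was 13.8 points. Of their RNA, Cd74 was higher in positive cells as given above, H2-Ab1 was at a log2 change of -0.48 and Cd14 did not pass the filter on low counts. In promoter height Cd14 did not follow, at 11.1 and 5.5 against 12.7 and 9.7. The part of other cells in these ranks was not tested.

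**Figure D5:**
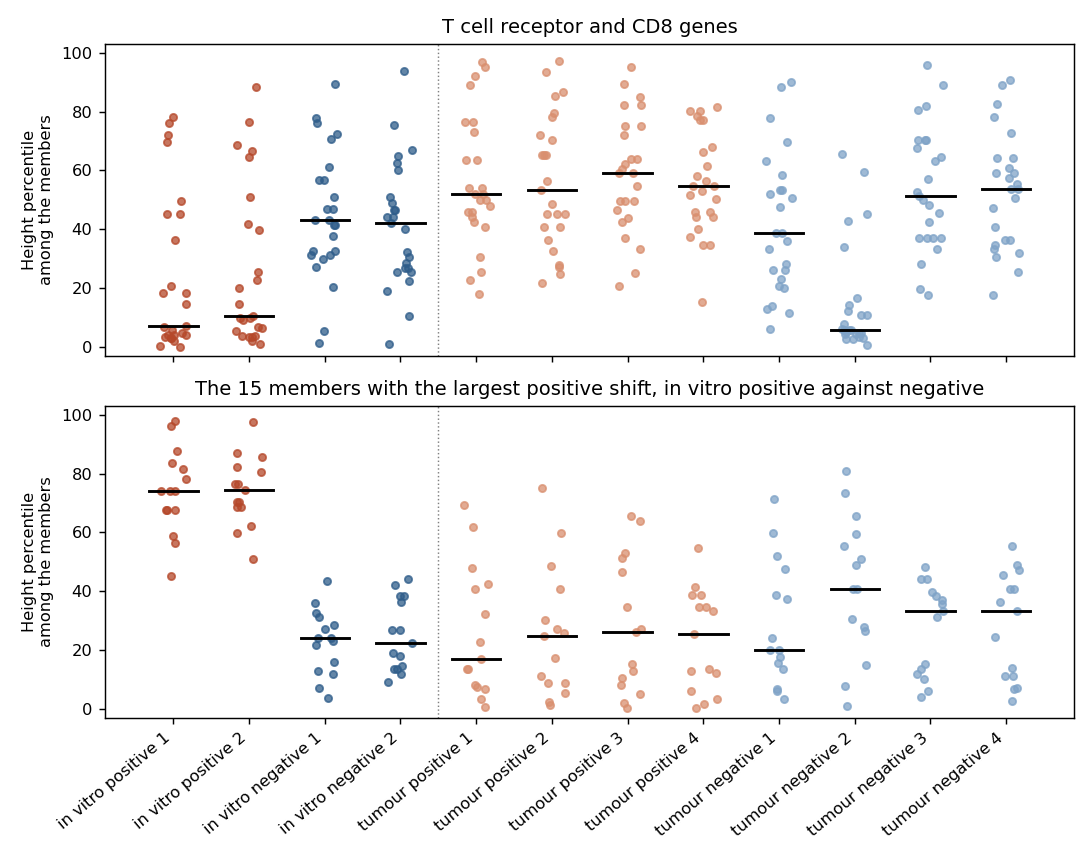
Points are promoters, the y axis is their height percentile among the 9796 shared promoters of the same library, and black lines are medians; the dotted line divides in vitro from tumour libraries. Above, the 25 T cell receptor and CD8 genes have medians of 7.2 and 10.4 in the in vitro positive libraries and 5.7 in tumour negative replicate 2, and 38.8 to 59.0 in the others. Below are the 15 promoters with the largest rise in in vitro positive cells, chosen for that rise.

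In the tumour, the T cell list had medians of 51.9, 53.2, 59.0 and 54.8 in the positive libraries and 38.8, 5.7, 51.4 and 53.8 in the negative ones. The low value belongs to tumour negative replicate 2. The median shift over the list was 14.8 points with it and 2.7 without it, and the shift from in vitro to tumour was 17.5 with it and between 15.0 and 24.2 when any 1 library was left out. In that library 740 promoters ranked at least 25 points above, and 692 below, all 7 other tumour libraries, where the other libraries had 85 to 190 and 78 to 251 against theirs. Its low promoters included Il2rb (6.1, others 81.0 to 96.2), Nkg7 (6.8, others 63.0 to 92.9), Runx3 (14.1, others 77.1 to 95.7), Lck (7.9, others 51.9 to 89.2) and Cd8b1 (4.8, others 50.5 to 85.3). Slco4a1 (18.3, others 81.4 to 97.3) and Adcy3 (14.9, others 66.0 to 91.8) were among them too. Its high ones included Sestd1 (93.5, others 4.9 to 9.5), Jag1, a Notch ligand (84.1, others 0.4 to 5.1), Lmna, lamin A (95, others 11.8 to 46.8), and Cd74 (80.8, others 1.8 to 13.6). Some genes of the T cell and effector lists also ranked above the other tumour libraries there. They included Ptprc (42.9, others 6.0 to 25.4), Ikzf1 (65.5, others 43.8 to 56.5), Ccl3 (61.5, others 3.2 to 29.1) and Ccl4 (65.5, others 17.8 to 58.6). Of the 3 myeloid genes Cd14 stood at 65.5 there (others 9.4 to 16.8), while H2-Ab1, at 30.6, lay within the others' 15.7 to 38.4. RNA of the tumour cells was not analysed here, and the part of other cells was not tested.

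The in vitro positive cells and tumour negative replicate 2, which share no library, had some of these promoters in common. Over all 9796 promoters, 7.55% were among the high and 7.06% among the low ones of that library. Of the 250 that ranked higher in in vitro positive cells, 48 (19.2%, and 6.49% of the 740) were among the high ones of that library and 8 (3.2%) among its low ones. Of the 279 that ranked lower, 65 (23.3%, and 9.39% of the 692) were among its low ones and 15 (5.38%) among its high ones.

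These shifts are in height and not in fold enrichment. By fold, the T cell list had median shifts of 2.8 points in vitro, -1.0 in the tumour and -1.5 between the settings, where height gave -21.9, 14.8 and 17.5, and by length the in vitro shift was -9.3. The list sat at the median percentile 2.0 of fold enrichment over the 12 libraries. Memory and stemness promoters were as low in fold (2.3), while those of mitochondrial ribosomal proteins stood at 76.1. The T cell promoters were wide (median region 2751 bp), at the percentile 84.9 of peak length, and the mitochondrial ribosomal ones narrow (1610 bp), at 31.7.

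Between tumour positive and negative cells, the 15 promoters that ranked lower by most in positive cells, named after their values were seen, were led by Srxn1. Srxn1, sulfiredoxin, an NRF2 target, was at 25.6, 15.3, 12.9 and 13.4 in positive and 63.1, 82.5, 70.5 and 71.3 in negative libraries. The metallothionein genes Mt2 and Mt1, next to each other on chromosome 8, were at 14.1 to 21.4 against 36.2 to 73.4 and at 26.2 to 37.4 against 55.5 to 91.8. Atf3, a stress-induced transcription factor, was at 28.7 to 67.1 against 88.4 to 93.8. The groups of these 4 promoters did not overlap, as the rule for counting a shift required. Tubb6, a tubulin, Lmna, Litaf and Socs2 were among the 15 largest falls too. Gm11346 (53.3 points), Treml2, Arhgdib, Zrsr1, Tha1 and Hsd11b1 led the 15 largest rises in positive cells. Rasgrp2, Gbp4, Commd10, Zeb1, Ggt5 and Gimap3 were among these rises too. So were Cd8b1 (76.6 to 85.3 against 4.8 to 64.5), Cd28, a costimulatory receptor (40.6 to 58.2 against 5.1 to 30.5), and Cd7 (37.4 to 54.6 against 0.7 to 17.5). The lowest of these negative values came from tumour negative replicate 2. Without it the shift of Cd8b1 was 23.5 points in place of 36.8 and that of Gimap3 22.2 in place of 31.8, both under the limit of 25 points. Of the 15 largest rises 13 stayed shifted without that library and of the 15 largest falls 14, with Srxn1 at -51.5, Mt2 at -37.1, Mt1 at -29.5 and Atf3 at -40.8 points.

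The RNA of the sorted cells in vitro, from libraries separate from those ranked, was set beside these shifts. Of tested genes whose promoter ranked lower in tumour positive than tumour negative cells, 24 of 53 (45.3%) were called in RNA, 20 of them lower in positive cells. Of those whose promoter ranked higher, 17 of 51 (33.3%) were called, 16 of them lower as well, against 24.9% of all other genes with a shared promoter. Without tumour negative replicate 2 the shares were 24 of 49 (49.0%, 19 lower) and 14 of 33 (42.4%, 12 lower). For the in vitro shifts, 28.8% of the genes whose promoter ranked higher were called (35 higher, 41 lower) and 29.3% of those whose promoter ranked lower (33 higher, 53 lower), against 24.8% of the others. For Gzmb the promoter went from percentiles of 88.1 and 57.7 to 3.6 and 8.0, and its RNA was not called.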

How the data were processed

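The members and the gene lists were chosen with earlier results of these data known. Gene-level RNA values, as deposited, are unscaled estimated counts; 22.5% to 23.8% of values in a library are not whole. The ATAC lists deposited by the authors give, per peak and library, length in bp, summit position, summit pileup signal, fold enrichment over local background, and -log10 of the p-value and q-value, per the file headers. These are the authors' values. The submitters' processing notes name mm10, with STAR, DESeq2 and Partek for RNA and cutadapt, BWA, MACS2 and Partek for ATAC. Versions, counting method, strandedness and any Tn5 shift are not given in the sources used here.

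Peaks were merged at 1 bp of overlap, and a gene start was the Start (plus strand) or Stop (minus strand) of the RNA table. Peak values were ranked within a library only. Estimated counts were rounded, filtered with filterByExpr, scaled by TMM and tested over all genes with edgeR 4.0.16 (quasi-likelihood, Benjamini-Hochberg, threshold 0.05), without a replicate block; the code was tested on simulated data. CPM are on TMM-scaled sizes. DESeq2 1.42.0, other scalings, no filter and leaving out each library were alternatives. Promoter sequences are from RefSeq (GRCm38.p6). Matching by gene reached 79.3% of genes with a member, under the 80% needed, so promoters were matched by region (82.2%), a choice made after that count; subsets under 80% are not given.

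Genes named are the 10 largest called rises and falls with groups that do not overlap and a mean of at least 5 CPM, the 12 promoters of highest and 5 of lowest fold, the 5 widest, those with most starts, and per list the 3 largest called changes, the 2 with most RNA and the genes without a shared promoter. The height ranks, the limit of 25 points, and the promoters named for height were chosen after values were seen, as were Cd8a, Cd8b1, Cd3d and Cd3e in RNA.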

Additional observations from a re-analysis of the deposited data

Results flagged for a closer look

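Some libraries were flagged as apart from the rest of their group of 4 in single measures. The flag sets the gap to the nearest library against the range of the group, so a small difference can be flagged. Each measure was examined in the tumour positive and in the tumour negative group, which gave 62 sets of 4 values. Of these, 10 held such a library. Chance gives about 5% for each set, but the sets share libraries and genes, so the count cannot show an excess. Tumour positive replicate 1 had the fewest peaks (27406), the largest share of peaks in shared promoters (36.7%) and a median height percentile of 51.9 for translation initiation factors. Tumour positive replicate 4 was low for the lists of memory and stemness (51.7), inhibitory receptors and exhaustion (29.9) and canonical histones (75.7). For the histones the difference was slight, since the other tumour positive libraries were at 76.6 to 76.7. Tumour negative replicate 1 had the most promoters split into 2 or more peaks (636) and the lowest percentile for cytosolic ribosomal proteins (52.7). Tumour negative replicate 2 had its median summit farthest downstream of the start (138 bp) and the highest percentile for the 3 myeloid markers (65.5). No explanation of these values was tested.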

How the results depend on the processing

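The number of shared promoters stayed within 1.5 times of 9796 under each alternative tried, with 9796 to 9961 when 1 library was left out (11053 to 11218 genes). For RNA, DESeq2 called 641 genes with a shared promoter higher and 846 lower, 1484 of them among the 2642 called by edgeR, and library size alone gave 2087 higher. Leaving out 1 library gave 618 to 1463 higher and 884 to 1603 lower; log2 changes of Gzma in RNA and Mki67 in RNA, neither called with all libraries, turned to -0.34 and -0.098 without negative library 2 and were called at 0.642 and 0.171 without negative library 1. With the replicate number as a block 1530 were higher and 1641 lower. Across genes, deviations of replicate 1 from its group mean correlated between the positive and negative arms at r = 0.0646. The replicate numbers were therefore not taken to pair the samples. Without a filter on low counts 51.7% of the bottom 25% by RNA had a shared promoter, and in the 250 bases before the start alone 73.9% reached a CpG ratio of 0.6. Ranks by fold in place of height, chosen after seeing the data, gave 121 higher and 84 lower (tumour against in vitro), 79 and 109 (in vitro positive against negative) and T cell list shifts of -1.5, 2.8 and -1.0; by length 96 and 179 were lower in the first 2 comparisons and the in vitro list shift was -9.3. Leaving out 1 library gave 409 to 577 higher and 407 to 561 lower in vitro, 69 to 145 and 189 to 315 between the settings, and 33 to 88 and 53 to 94 in the tumour, and list shifts of -24.8 to -16.8, 15.0 to 24.2 and 2.7 to 23.4; fewer libraries overlap less often by construction. The causes of the other changes were not tested. Read depth of the ATAC libraries is unknown, so an absent peak is not closed chromatin, and 2 RNA libraries a group limit the precision of every fold.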

Other observations

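Promoters of stress response and chaperone genes had tall peaks in each library, and so had those of some other lists. By library, the median height percentile was 59.9 to 81.9 for housekeeping references and 62.5 to 71.5 for HIF1 targets and glycolysis. Over the 22 genes of the unfolded protein response the median height percentile was 67.5 to 88.3 by library, over 31 genes of the PERK and integrated stress response 64.8 to 79.6, and over 56 canonical histone genes 64.8 to 91.5. The 78 mitochondrial ribosomal genes were at 31.2 to 42.4. Effector genes spread widely: their median was 6.8 in tumour negative replicate 2 and 56.4 in tumour negative replicate 3, and Gzma, granzyme A, stood between 0.1 and 13.8 in every library.

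Of 417 lncRNA genes with a shared promoter 299 were tested in RNA, and 13.7% of those were called, against 25.3% of 10199 protein-coding genes with one. Their median level was 1.6 CPM against 37.0 CPM. Whether the level sets this difference was not tested.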
